A study of Mus musculus with 6 samples.

Results

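Tuft cells are rare chemosensory cells of the gut epithelium, and the 10 genes described here are ones by which they are recognised: Dclk1, Trpm5, Pou2f3, Il25, Gfi1b, Avil, Ptgs1, Hpgds, Sh2d6 and Alox5. They were chosen by name, and 9 of the 10 had a row among the 19844 genes of the deposited table. Expression of Sh2d6, an SH2-domain adaptor, was not analysed here. The samples were distal colon tissue of 3 ChREBP knockout (KO) and 3 wild-type (WT) C57BL6 mice, read by sequencing of poly-A RNA. ChREBP, encoded by Mlxipl, is a glucose-responsive transcription factor, and the labels do not say which cells lack it or how the allele was made. Both groups had received AOM/DSS, the carcinogen azoxymethane with the mucosal irritant dextran sulfate sodium, and were taken at day 17, so there was no untreated group. The labels give each mouse as female, but give no age. By its title the study asks about a role of ChREBP in colorectal cancer, and its design holds 1 comparison, KO against WT. Expression was given as FPKM, fragments per transcript length and library size, so levels of different genes can be compared.

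A tuft cell senses luminal metabolites through taste-type receptors, a G protein with the gustducin alpha subunit, phospholipase C and calcium release, which opens the cation channel TRPM5. In mice the transcription factor POU2F3 is required for the lineage, and IL-25 released by tuft cells drives type 2 lymphoid cells to make IL-13, which in turn expands tuft and goblet cells. Tuft cells also make prostaglandins and cysteinyl leukotrienes, with enzymes that mast cells and macrophages share.

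The libraries were alike in depth, at an estimated 17700000 to 18500000 reads each, and 13079 to 13253 genes per library reached 1 FPKM. Mlxipl, the targeted gene, was at 3.40, 5.66 and 5.04 FPKM in KO replicates 1 to 3 against 5.84, 7.49 and 7.27 in WT replicates 1 to 3. Its transcript was present in every KO library. All KO values were below all WT values, and 4.14% of all genes tested had groups apart in this direction. Mlxipl was not called (log2 fold change -0.48, SE 0.18, limma adjusted p = 0.9995). Its unadjusted limma p was 0.026, and 1.7% of all genes tested were under 0.05 in this direction. With 1 library left out, its log2 fold change ranged from -0.60 to -0.30. Xist was at most 0.04 FPKM and the Y-linked Ddx3y at least 9.51 FPKM in all 6 libraries, against the label female. The epithelial markers were abundant in every library, with Krt8, a keratin of simple epithelium, between 1559 and 2015 FPKM. Nothing in the labels says whether the replicates were handled separately beyond coming from 3 mice a group, so the tests measure the spread between these samples. In whole tissue, fewer cells of a type and less RNA per cell cannot be told apart.

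The 9 members spanned a wide range of levels per transcript length. Ptgs1 was highest at a mean of 13.1 FPKM over the 6 libraries, above 72.2% of all genes in the table. Hpgds at 3.68, Dclk1 at 2.93 and Avil at 1.41 FPKM followed. Alox5 at 0.582, Trpm5 at 0.542 and Pou2f3 at 0.400 FPKM were lower, and Gfi1b at 0.105 and Il25 at 0.0167 FPKM were lowest. The ranges of Hpgds and Dclk1 overlapped, as did those of Alox5 and Trpm5 and of Trpm5 and Pou2f3. Between the other neighbours in this order the higher gene exceeded the lower one in all 6 libraries. Trpm5 and Pou2f3 were thus in the lower part of this order, above Gfi1b and Il25, and Ptgs1 exceeded Trpm5 at least 17.3-fold in every library. All members but Il25 were detected in each of the 6 libraries.

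**Figure D1:**
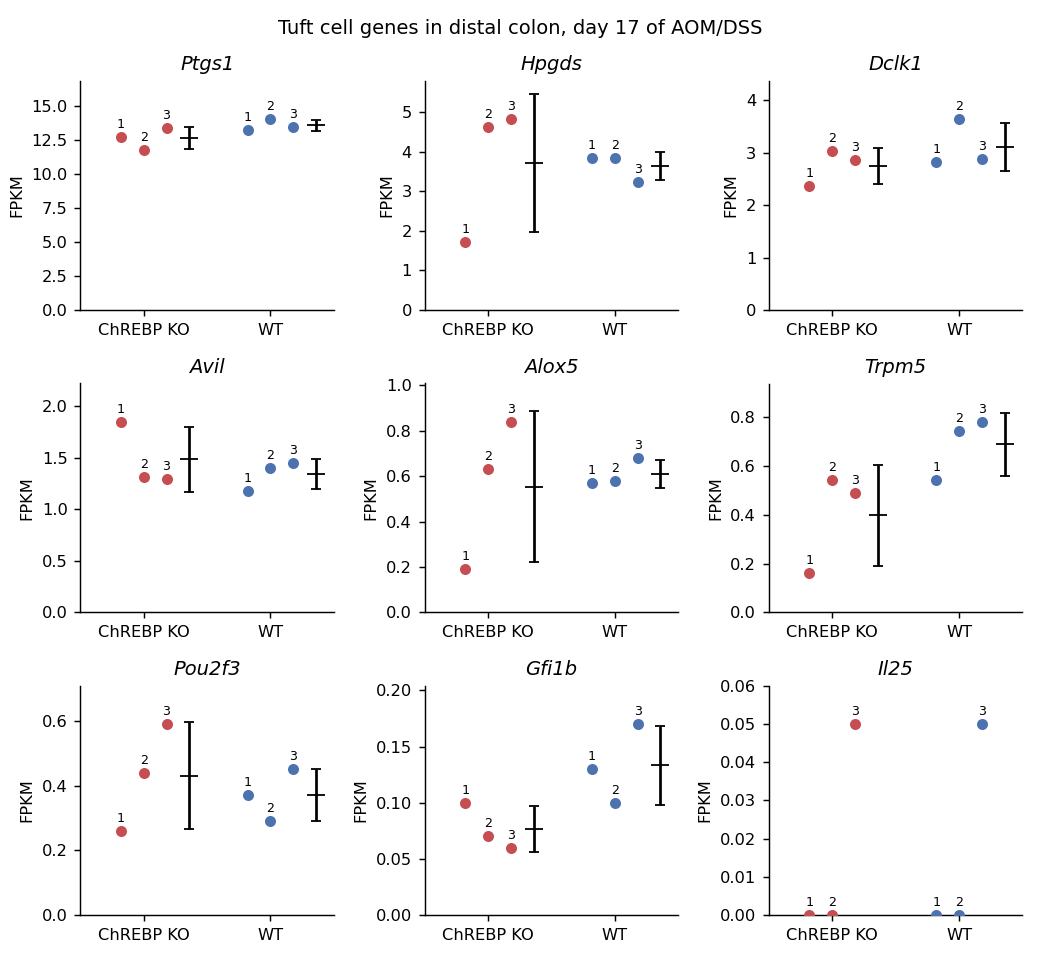
FPKM of the 9 tuft cell genes in 3 ChREBP KO (red, left) and 3 WT (blue, right) libraries, numbered by replicate, with the mean and SD in black except for Il25, which was listed at 0 in 4 libraries. KO replicate 1 was the lowest of the 6 libraries for Hpgds, Dclk1, Alox5, Trpm5 and Pou2f3, and the highest for Avil.

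No member passed the test of genotype. Of the 9 members, 4 (Ptgs1, Hpgds, Dclk1 and Avil) reached 1 FPKM in at least 3 libraries and entered a test of log2(FPKM + 1) with limma over 13247 genes, with Benjamini-Hochberg adjustment. None of the 4 was called by limma (adjusted p under 0.05; count 0), against a background of 0.0151% of all genes tested, which is 2 genes. At an unadjusted p under 0.05 the count was again 0 of 4, against 3.4% of all genes. The KO and WT values overlapped or touched in all 9 members, and of all genes tested 8.67% had groups that did not overlap. The median log2 fold change, KO minus WT, was -0.08 over the 4 tested members and 0.01 over all genes tested.

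Among the transcription factors, Pou2f3, the POU-domain factor of the tuft lineage, was at 0.26, 0.44 and 0.59 FPKM in KO replicates 1 to 3 against 0.37, 0.29 and 0.45 in WT replicates 1 to 3. The WT values all lay within the range of the KO values. The means were 0.430 ± 0.165 in KO and 0.370 ± 0.0800 FPKM in WT (SD, n = 3 each). At the estimated depth the libraries held between 12 and 27 reads of Pou2f3, so that counting error alone is wide for this gene. Gfi1b, a zinc-finger repressor of tuft and blood cell lineages, was at 0.10, 0.07 and 0.06 FPKM in KO against 0.13, 0.10 and 0.17 in WT. KO replicate 1 and WT replicate 2 were equal, and the other KO libraries were below all WT libraries. These values correspond to 2 to 5 reads a library, and a difference between 0.0767 ± 0.0208 FPKM in KO and 0.133 ± 0.0351 in WT (SD, n = 3 each) was not detectable at that depth.

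Trpm5, the calcium-activated cation channel of the taste pathway, was at 0.16, 0.54 and 0.49 FPKM in KO replicates 1 to 3 against 0.54, 0.74 and 0.78 in WT replicates 1 to 3. KO replicate 1 stood well below the rest, and KO replicate 2 was level with WT replicate 1. The KO mean of 0.397 ± 0.206 FPKM was 57.8% of the WT mean of 0.687 ± 0.129 (SD, n = 3 each). An exact permutation test of the 6 values gave p = 0.2, two-sided, where 3 against 3 cannot give less than 0.1. When every gene was tested without the filter on low values, the log2 fold change of Trpm5 was -0.28 (limma adjusted p = 0.986). With a pseudocount of 0.1 FPKM in place of 1, which compresses low genes less, it was -0.76 (limma adjusted p = 0.988). Leaving out KO replicate 1, the KO mean was 0.515 FPKM.

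The cytoskeletal members showed no shared direction. Dclk1, a doublecortin-family kinase that binds microtubules, was at 2.37, 3.03 and 2.86 FPKM in KO against 2.82, 3.64 and 2.88 in WT. KO replicate 1 was lowest and WT replicate 2 highest, with the other 4 libraries between 2.82 and 3.03 FPKM. Its log2 fold change, KO minus WT, was -0.13 (SE 0.13, 95% interval -0.44 to 0.18, limma adjusted p = 0.9995). Avil, which encodes advillin, an actin-bundling protein of the villin family, was at 1.85, 1.31 and 1.29 FPKM in KO against 1.18, 1.40 and 1.45 in WT. Here KO replicate 1 was the highest of the 6, and the other KO values lay within the WT range. The log2 fold change was 0.08 (SE 0.14, interval -0.24 to 0.40, limma adjusted p = 0.9995), and -0.025 without KO replicate 1.

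Of the eicosanoid enzymes, Ptgs1, which encodes cyclooxygenase 1, was the steadiest member. It was at 12.76, 11.79 and 13.38 FPKM in KO against 13.28, 14.05 and 13.47 in WT, and KO replicate 3 was above WT replicate 1. The means were 12.6 ± 0.801 in KO and 13.6 ± 0.401 FPKM in WT (SD, n = 3 each). Its log2 fold change was -0.10 (SE 0.09, interval -0.32 to 0.12, limma adjusted p = 0.9995). Hpgds, the haematopoietic prostaglandin D synthase, was at 1.71, 4.63 and 4.83 FPKM in KO against 3.84, 3.85 and 3.24 in WT. The KO libraries lay on both sides of the WT libraries, 1 below and 2 above. The log2 fold change was -0.05 (SE 0.28, interval -0.70 to 0.59, limma adjusted p = 0.9995). Without KO replicate 1 it was 0.31, with a limma adjusted p of 0.796, the lowest over the 15 alternatives. Alox5, the 5-lipoxygenase that starts leukotriene synthesis, was at 0.19, 0.63 and 0.84 FPKM in KO against 0.57, 0.58 and 0.68 in WT, with the KO libraries again on both sides. Its KO mean was 0.553 ± 0.332 and its WT mean 0.610 ± 0.0608 FPKM (SD, n = 3 each). Exact permutation tests, two-sided, gave p = 0.9 for Alox5, 0.7 for Pou2f3 and 0.2 for Gfi1b.

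Il25, the cytokine by which tuft cells signal to type 2 lymphoid cells, was listed at 0 in KO replicates 1 and 2 and in WT replicates 1 and 2. It was at 0.05 FPKM in KO replicate 3 and in WT replicate 3, which corresponds to 1 read in each. A count of 0 has a 95% Poisson upper bound of 3.69 reads, so a difference in Il25 was not detectable at this depth.

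KO replicate 1 differed from the other 5 libraries in several members at once, a pattern singled out after the values were seen. It was the lowest library for 5 of the 8 members with a single lowest library, and over all genes the same library was lowest in 20.7%. Relative to the median of the other 5 libraries, its level was 29.6% for Trpm5, 30.2% for Alox5, 44.4% for Hpgds, 59.1% for Pou2f3 and 82.3% for Dclk1. The same ratio was 95.4% for Ptgs1 and 141% for Avil, so the members did not move together in that library. In estimated reads, Trpm5 had 12 in KO replicate 1 (95% Poisson interval 6.20 to 21.0) against 36 to 57 elsewhere, and the lowest interval bound among the others was 25.2. Alox5 had 10 (4.80 to 18.4) against 29 to 43, with a lowest bound of 19.4 among the others. Hpgds had 109 (89.5 to 131) against 198 to 302, with a lowest bound of 171. For Pou2f3 the intervals overlapped. The intervals cover counting error only and not the spread between mice, the genes and the library were picked after their values were seen, and the reads are estimates from FPKM and transcript length.

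**Figure D2:**
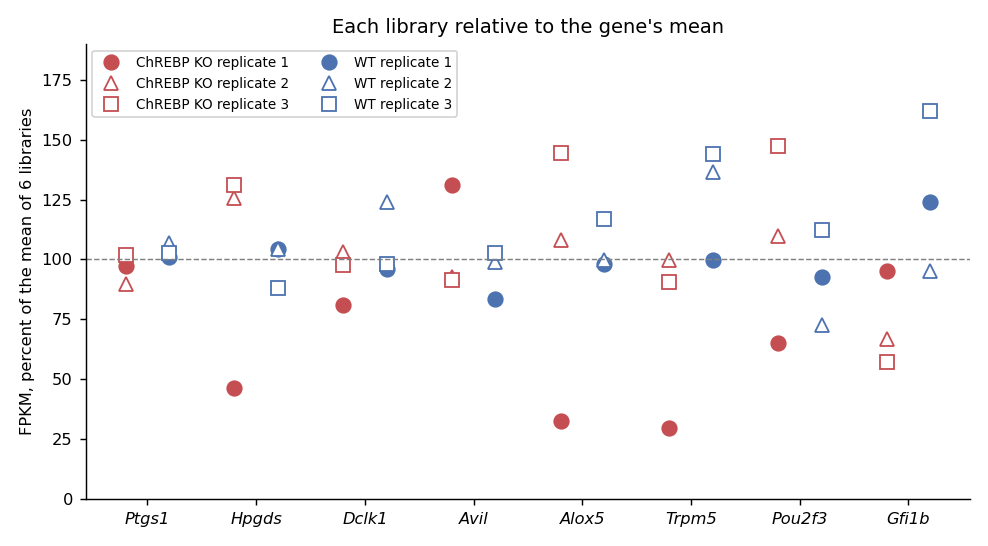
FPKM of each member in each library as a percentage of the member's mean over the 6 libraries, KO libraries (red) left of WT libraries (blue), Il25 left out. KO replicate 1 (filled red circle) was at 29.5% for Trpm5, 32.7% for Alox5 and 46.4% for Hpgds, but at 97.2% for Ptgs1 and 131% for Avil.

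**Figure D3:**
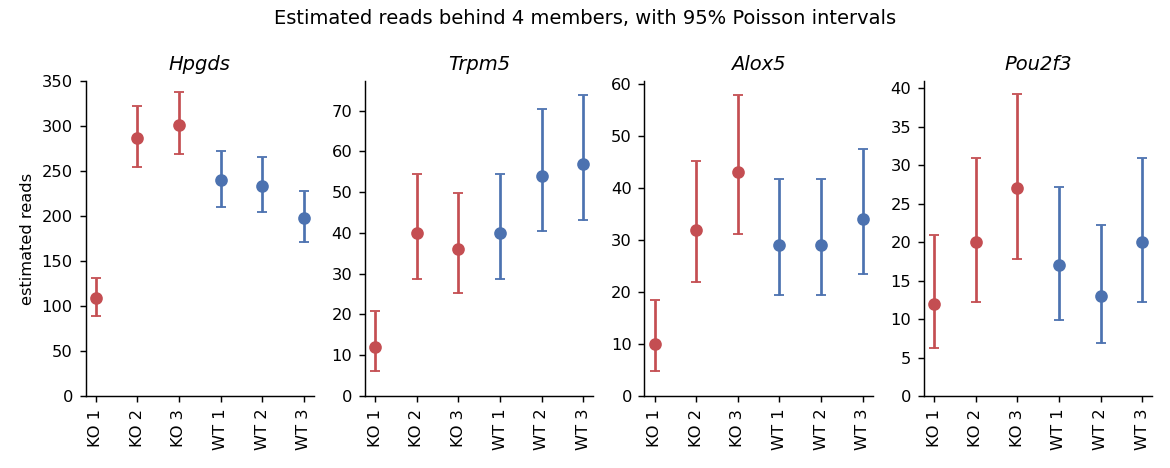
Estimated reads of Hpgds, Trpm5, Alox5 and Pou2f3 per library, KO in red and WT in blue, with 95% Poisson intervals as bars. The interval of KO replicate 1 lay below those of the other 5 libraries for the first 3 genes and overlapped them for Pou2f3.

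The promoters of Hpgds, Trpm5 and Alox5, the members with the lowest percentages in KO replicate 1, and of Avil, which was highest there, are shown because these members were furthest from the other libraries there. Each is the 250 bases before the annotated start, from RefSeq on GRCm38.p6, on the gene's own strand, and 8 of the 10 members, Sh2d6 among them, had at least 1, with 2 for Dclk1. Capitals mark the octamer ATGCAAAT, the element that POU-domain factors of the POU2F family bind.
Hpgds, chr6:65144731-65144980, minus strand: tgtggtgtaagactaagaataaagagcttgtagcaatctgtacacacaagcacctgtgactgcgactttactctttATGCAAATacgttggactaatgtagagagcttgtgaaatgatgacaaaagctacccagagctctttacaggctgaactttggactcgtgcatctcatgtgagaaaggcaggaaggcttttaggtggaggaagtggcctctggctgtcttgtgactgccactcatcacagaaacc
Trpm5, chr7:143094643-143094892, minus strand: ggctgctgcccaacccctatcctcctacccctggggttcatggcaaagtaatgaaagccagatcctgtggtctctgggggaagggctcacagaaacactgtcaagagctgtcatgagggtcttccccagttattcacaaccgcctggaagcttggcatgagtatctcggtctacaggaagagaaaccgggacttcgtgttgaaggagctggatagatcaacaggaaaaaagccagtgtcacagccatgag
Alox5, chr6:116461179-116461428, minus strand: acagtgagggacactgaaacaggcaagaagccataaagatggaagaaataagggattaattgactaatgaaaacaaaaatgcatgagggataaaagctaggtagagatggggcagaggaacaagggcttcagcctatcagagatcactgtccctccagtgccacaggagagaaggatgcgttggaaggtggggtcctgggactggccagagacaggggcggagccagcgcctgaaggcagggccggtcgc
Avil, chr10:127000459-127000708, plus strand: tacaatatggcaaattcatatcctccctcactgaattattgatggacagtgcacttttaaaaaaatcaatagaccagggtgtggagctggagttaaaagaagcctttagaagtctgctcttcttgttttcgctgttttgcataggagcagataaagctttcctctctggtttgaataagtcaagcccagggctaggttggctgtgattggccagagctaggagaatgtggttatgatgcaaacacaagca
The octamer was searched on both strands, as ATGCAAAT and its reverse complement ATTTGCAT. It was found in 1 of the 9 member promoters, that of Hpgds, where it begins 174 bases before the start, and in 1.60% of the 32851 promoters of the table. The E-box CACGTG, a palindrome that ChREBP binds as part of a longer element, was in 0 of the 9 and in 6.02% of all promoters. Neither motif contains the other, and a match is a stretch of letters, not evidence of binding.

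A further 54 genes reported in tuft cells were described beside the members. The list was written from general knowledge with earlier results of these data known. All 54 had a row and 36 were tested. The log2 fold change was above 0 in 15 and below 0 in 21, against 6986 and 6261 of all genes tested. Its median was -0.04, where that of all genes was 0.01. This median was above 0 without KO replicate 3 (0.026) and without WT replicate 2 (0.0078). The number called by limma was 0, against 0.0151% of all genes. At an unadjusted p under 0.05 there was 1, higher in KO, against 1.7% of all genes in that direction. That gene was Rgs2, a regulator of G-protein signalling found in many cell types, at 8.46, 9.14 and 9.29 FPKM in KO against 6.56, 7.38 and 6.60 in WT. Every KO value was above every WT value, which held in this direction for 4.53% of all genes, and the log2 fold change was 0.35 (SE 0.10, limma adjusted p = 0.9995). Lrmp, a membrane protein of the endoplasmic reticulum, was at 19.4 ± 2.96 FPKM in KO and 15.2 ± 2.83 in WT, with overlapping groups. Fyb, an adaptor of blood cells, was at 4.36 ± 0.841 and Kctd12, a potassium channel tetramerisation-domain protein, at 12.2 ± 1.18 FPKM in KO, against 5.27 ± 0.212 and 13.8 ± 1.39 in WT (SD, n = 3 each).

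**Figure D4:**
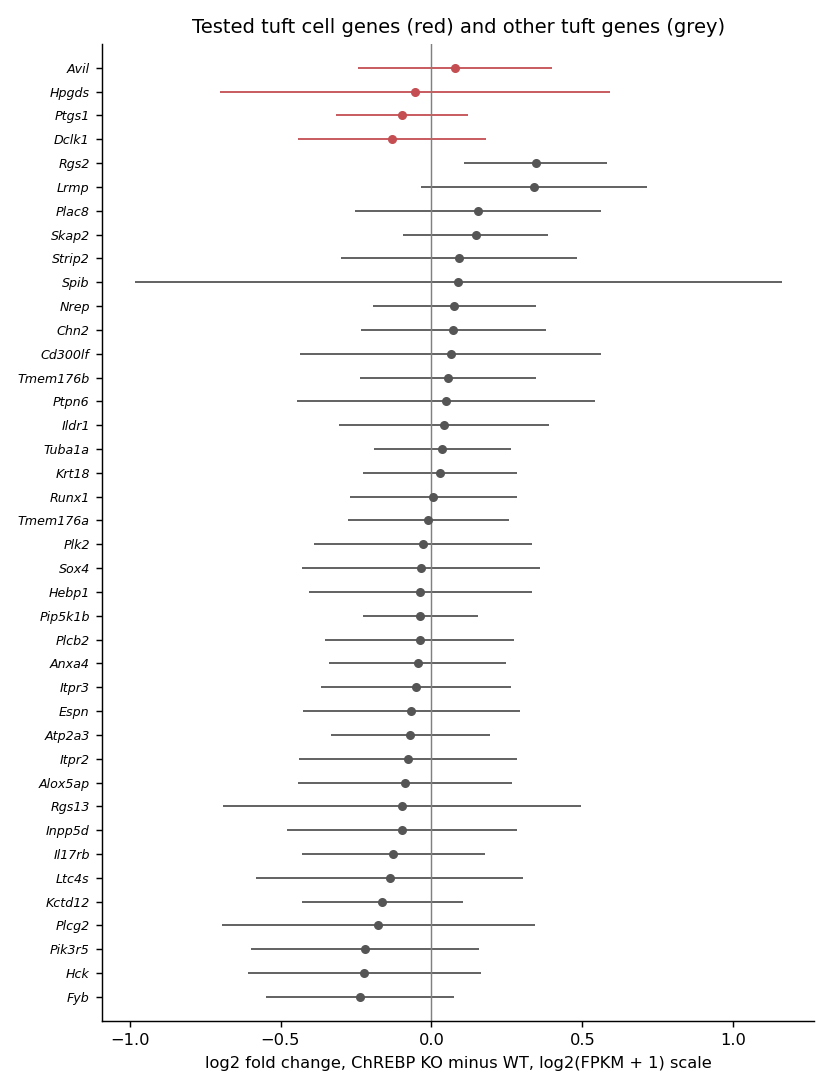
log2 fold change (KO minus WT, log2(FPKM + 1) scale) with limma's 95% interval for the 4 tested members (red) and the 36 tested other tuft genes (grey), sorted within each set. The intervals of all 4 members included 0, and of the others that of Rgs2 did not.

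Kctd12, Il17rb and Ltc4s were the other tuft genes, at a mean of at least 1 FPKM, whose 6 standardized values lay nearest to the mean profile of the 4 tested members, at a mean absolute difference of 0.404, 0.527 and 0.596 SD units. Il17rb, the receptor subunit for IL-25, was at 0.85, 1.22 and 1.16 FPKM in KO against 1.16, 1.30 and 1.32 in WT. Ltc4s, the leukotriene C4 synthase, was at 1.21, 2.69 and 1.95 FPKM in KO against 1.95, 2.35 and 2.25 in WT. The members' mean profile, by which these 3 genes were chosen, is itself lowest in KO replicate 1. Of the 49 other tuft genes with a single lowest library, 11 were lowest in KO replicate 1, 22.4% against 20.7% of all genes. Those 11 included Gng13, the gustducin gamma subunit, at 31.7% of the median of the other libraries, Bmx, a kinase of the TEC family, at 40.0%, and Gnat3, the gustducin alpha subunit, at 47.4%. These 3 were near the floor in KO replicate 1, at 0.13, 0.14 and 0.09 FPKM, against at least 0.15, 0.28 and 0.10 elsewhere. Il17rb and Kctd12, also lowest there, were at 69.7% and 84.4%. KO replicate 3 was lowest for 13, 26.5% against 16.0% of all genes, and WT replicate 3 for another 13, 26.5% against 21.8% of all genes. KO replicate 1 was also the highest library for 8 of the 51 with a single highest library, 15.7% against 16.7% of all genes. The genes lowest in WT replicate 3 included Spib at 2.49 FPKM there, against 6.65 to 8.56 in KO and 8.82 and 14.3 in the other WT libraries. Spib, an ETS factor, is also a B cell gene, and the 8 B cell markers summed to 60.6 to 88.8 FPKM in KO against 89.1, 133 and 23.6 in WT replicates 1 to 3. The part of B cells in these values was not tested.

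Genes up and downstream of the members gave no calls either. Of 12 taste transduction genes, which share 10 with the list above, 5 were tested. Limma called 0, against 0.0151% of all genes, and 0 had an unadjusted p under 0.05, against 3.4%, so counts of 0 say little here. Log2 fold changes were above 0 in 1 and below 0 in 4, against 6986 and 6261 of all genes tested, with a median of -0.04. The gustducin genes Gnat3 and Gng13 were under the filter and not tested. They were at means of 0.173 and 0.230 FPKM in KO against 0.180 and 0.507 in WT, with overlapping groups. The tested genes included the calcium release channels Itpr3 at 26.2 ± 4.56 and Itpr2 at 2.35 ± 0.665 FPKM in KO, against 26.9 ± 1.53 and 2.49 ± 0.0666 in WT. Plcb2, the phospholipase C of taste cells, was at 1.15 ± 0.0987 in KO and 1.21 ± 0.244 FPKM in WT. Trpm4, the channel nearest to TRPM5, was at 28.4 ± 0.747 in KO and 27.5 ± 0.971 FPKM in WT (SD, n = 3 each), far above Trpm5 in every library.

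Of 15 further eicosanoid enzymes, which share 2 with the list of other tuft genes, 12 were tested. Log2 fold changes were above 0 in 3 and below 0 in 9, against 6986 and 6261 of all genes tested. Limma called 0, against 0.0151% of all genes, and 0 had an unadjusted p under 0.05, against 3.4%. Their median was -0.10. Hpgd, which degrades prostaglandins, was at 58.35, 103.00 and 83.35 FPKM in KO against 97.37, 100.16 and 91.43 in WT, again lowest in KO replicate 1. Cbr1, a carbonyl reductase that acts on prostaglandins, was at 149 ± 16.3 in KO and 178 ± 32.0 FPKM in WT, and Ptges2, a prostaglandin E synthase, at 9.34 ± 0.437 and 10.4 ± 1.41. Ptgs2, the inducible cyclooxygenase, was at 0.96, 2.15 and 0.79 FPKM in KO against 1.03, 1.83 and 3.03 in WT, so that Ptgs1 exceeded it between 4.45-fold and 16.9-fold in each library. Of the 8 receptors for these lipids 2 were tested and 0 called, with 0 at an unadjusted p under 0.05, against the same shares of all genes. Tbxa2r, the thromboxane receptor, was at 1.35 ± 0.396 in KO and 1.60 ± 0.242 FPKM in WT, and Cysltr1, a cysteinyl leukotriene receptor, at 1.47 ± 0.163 and 1.39 ± 0.236 (SD, n = 3 each).

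A list of 25 genes of type 2 responses was described as well, of which 24 had a row and 13 were tested. Whether tuft cells or IL-13 set the levels of these genes here was not tested. Limma called 0 of the 13, against 0.0151% of all genes. At an unadjusted p under 0.05 there were 2, both lower in KO, against 1.7% of all genes in that direction. Clca1, a goblet cell secreted protein induced by IL-13, was at 1652, 1892 and 1547 FPKM in KO against 2873, 2059 and 2559 in WT. All KO values were below all WT values, which held in this direction for 4.14% of all genes, and the log2 fold change was -0.55 (SE 0.17, limma adjusted p = 0.9995). Ccl11, the eosinophil chemokine eotaxin, was at 8.08, 5.21 and 5.68 FPKM in KO against 11.62, 11.32 and 8.07 in WT. KO replicate 1 and WT replicate 3 touched at 8.08 and 8.07, and the log2 fold change was -0.63 (SE 0.19, limma adjusted p = 0.9995). Il5ra, an interleukin 5 receptor subunit, was at 1.82 ± 0.352 and Il1rl1, the IL-33 receptor, at 3.95 ± 2.51 FPKM in KO, against 1.35 ± 0.258 and 2.51 ± 0.470 in WT (SD, n = 3 each). The list's median log2 fold change was -0.0048, and Il13 itself was listed at 0 in every KO library and at 0, 0.10 and 0 FPKM in WT replicates 1 to 3.

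Markers of other cells that express members varied between libraries as well. The 12 macrophage and monocyte markers, among them Lyz2, C1qa and C1qb, summed to 320, 544 and 333 FPKM in KO against 359, 403 and 505 in WT. KO replicates 1 and 3 had the lowest sums. The 12 mast cell and basophil markers with a row, among them Kit, Mcpt1 and Cma1, summed to 42.1, 35.6 and 17.6 FPKM in KO against 25.6, 24.6 and 30.2 in WT. KO replicate 1 was the highest library for 7 of the 12, against 16.7% of all genes, led by the protease gene Mcpt1 at 17.12 FPKM. Some of the 7 were under 1 FPKM there. Kit, the stem cell factor receptor, was lowest in that library at 10.01 FPKM. Cma1, a chymase, was at 4.08, 6.48 and 3.57 FPKM in KO replicates 1 to 3 against 5.17 to 6.50 in WT, lowest in KO replicate 3. Of the 5 tested mast cell and basophil markers, 1 had groups that did not overlap, lower in KO, against 4.14% of all genes. The 12 epithelial markers, among them Krt8, Krt19 and Epcam, summed to 7287, 6362 and 6195 FPKM in KO against 6736, 6792 and 6076 in WT, highest in KO replicate 1. No marker of these 3 lists was at 0 in all libraries. The 8 platelet markers with a row, of which Pf4 was the highest, summed to 10 to 18.2 FPKM in KO against 9.02 to 17.8 in WT, the 12 neuron and glia markers, led by Uchl1, to 31.6 to 38.4 against 30.9 to 35.0, and the 8 fibroblast markers, led by Col3a1, to 666 to 735 against 609 to 764. The 11 neutrophil markers with a row summed to 174 to 228 FPKM in KO against 176 to 241 in WT. Ly6g made up most of that sum, at a mean of 189 FPKM, where the next marker, Cxcr2, was at 2.76. The 9 T and innate lymphoid markers summed to 42.4 to 49.2 FPKM in KO against 42.6 to 50.9 in WT. Thy1, also on the fibroblast list, led these at a mean of 25.9 FPKM, and the next, Cd4, was at 5.12. Of the 8 tested T and innate lymphoid markers, 1 had a log2 fold change above 0 and 7 below 0, against 6986 and 6261 of all genes tested. Limma called 0 of these 8, against 0.0151% of all genes. The part of these cells in the members' values was not tested.

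Enteroendocrine cells are another rare epithelial type. Their 10 markers, led by the hormone genes Pyy and Insl5, summed to 467, 568 and 275 FPKM in KO against 522, 448 and 501 in WT. KO replicate 3 was lowest in 8 of the 10. The same library was lowest in 1 of the 8 tuft members with a single lowest library, in 13 of the 49 other tuft genes and in 16.0% of all genes. Of 8 tested enteroendocrine markers 0 were called by limma, against 0.0151% of all genes. By limma 1 had an unadjusted p under 0.05 (Tph1, the serotonin-synthesis enzyme, lower in KO), against 1.7% of all genes in that direction. The median log2 fold change was -0.22, where that of all genes was 0.01. How far this median rests on KO replicate 3 was not tested.

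**Figure D5:**
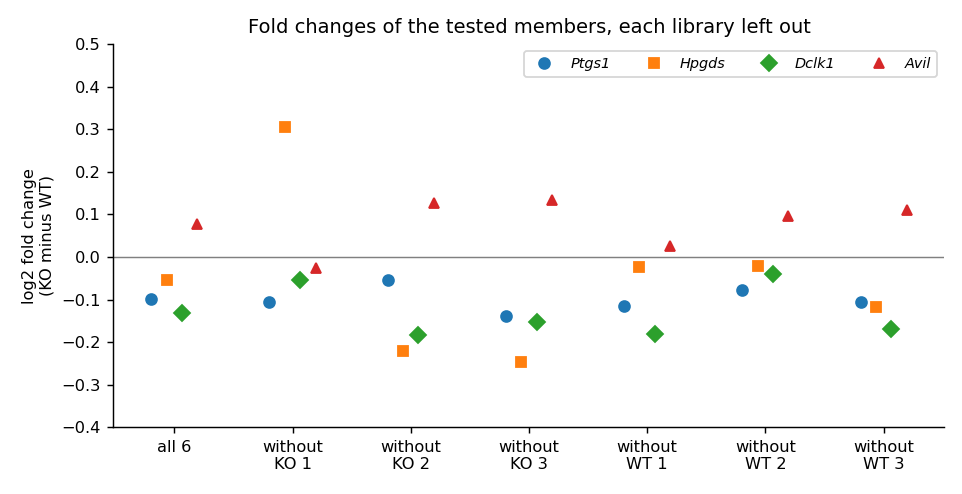
log2 fold change (KO minus WT) of the 4 tested members with all 6 libraries and with each library left out. Without KO replicate 1, Hpgds was at 0.31 and Avil at -0.025, against -0.05 and 0.08 with all libraries, and Ptgs1 and Dclk1 stayed below 0 in each of the 7 fits.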

How the data were processed

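The deposited table holds FPKM, to 2 decimals, for 19844 genes in 6 libraries made from poly-A RNA per the labels' protocols. HISAT2, RSEM and mm39 are named in the submitters' processing notes, with versions, filters and strand not given in the sources used. Groups came from the genotype label and replicate numbers from the titles. Members and lists were chosen with earlier results of these data known. The 13247 genes that reached 1 FPKM in 3 or more of the 6 libraries were tested on log2(FPKM + 1) with limma 3.58.1 in R 4.3.3 (mean-variance trend, genotype as the sole term, two-sided, Benjamini-Hochberg adjustment over all genes tested, threshold 0.05). A fold change on that scale understates that of low genes. The code was tested on simulated data. Members under the filter are given as values, with an exact permutation test each except for Il25.

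Depth was estimated from 383 genes of up to 150 bases with 1 transcript, whose values step by whole reads. With a length offset of 36 bases, 68.5% to 86.4% of values per library came within 0.05 of a whole number. Reads per member used lengths of GENCODE M21 transcripts. Dclk1, with several isoforms, was left out of that step, and Gfi1b is given over its shortest and longest transcript. Promoters came from RefSeq (GRCm38.p6), a build other than the authors', and were not joined to coordinates of the files.

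The genes named are all members, Mlxipl, up to 4 tested genes of smallest p per related list, the 3 other tuft genes nearest to the tested members' profile, and markers of highest level. Gng13, Bmx, Gnat3, Spib, Il13, Tph1, Xist and Ddx3y were named after their values were seen. Alternatives covered the pseudocount, the filter, 3 scalings, 2 variance models, a replicate block and each library left out. Python 3.11.15 with pandas 2.3.3, numpy 2.4.6 and scipy 1.17.1 handled the tables, and matplotlib 3.10.9 the plots.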

Additional observations from a re-analysis of the deposited data

How the results depend on the processing

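No member and no other tuft gene was called by limma in any of the 15 alternatives that it entered. The smallest limma adjusted p of a member was 0.796. Alox5, Trpm5, Pou2f3, Gfi1b, Il25 and the other tuft genes under the filter entered only the fits without the filter. For these genes the remaining alternatives say nothing. Over all genes, where the main count was 2, limma called 5 after scaling to the epithelial markers, 5 with a pseudocount of 0.1 FPKM and no filter (a combination added after seeing the data), 0 with the replicate block, and 0 to 1 with 1 library left out (1 without WT replicate 1). At an unadjusted p under 0.05 those fits held between 272 and 807 genes. With libraries scaled to the same sum of FPKM they split into 170 higher and 272 lower in KO, against 225 and 225 as deposited. Direction changed without KO replicate 1 for Hpgds (0.31), Avil (-0.025), Itpr2 (0.029), Il1rl1 (-0.0015) and Ltc4s (0.054), without KO replicate 2 for Itpr3 (0.10), without WT replicate 2 for Plcb2 (0.025) and Cysltr1 (-0.015), and with array weights for Itpr2 (0.0085). With 1 library left out, the median of the tested members ranged from -0.145 (without KO replicate 3) to -0.031 (without WT replicate 2), against -0.077 in the main fit. The median of the other tuft genes was above 0 without KO replicate 3 (0.026) and without WT replicate 2 (0.0078). With 1 library left out, log2 fold changes ranged from -0.14 to -0.05 for Ptgs1, -0.25 to 0.31 for Hpgds, -0.18 to -0.04 for Dclk1, -0.025 to 0.13 for Avil, -0.23 to 0.029 for Itpr2, -0.14 to 0.10 for Itpr3, -0.13 to 0.025 for Plcb2, -0.015 to 0.13 for Cysltr1, -0.0015 to 0.71 for Il1rl1 and -0.32 to 0.054 for Ltc4s. The cause was not tested. Whether the replicate numbers pair samples is not known. Same-numbered libraries deviated with correlations of 0.27, -0.10 and 0.06, and the other pairs with correlations between -0.29 and 0.25. So few libraries cannot decide it. With the block no tested member was called, as in the main fit, while the count over all genes went from 2 to 0. Depth limits Gfi1b and Il25 most, with 0 to 5 reads a library, and also Alox5, Pou2f3 and Trpm5, with minima of 10, 12 and 12 reads.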
